A study of Mus musculus with 20 samples.

Results

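The genes described here encode the transcription factor NRF2 (gene symbol Nfe2l2), its inhibitor KEAP1 (Keap1), and 8 enzymes of the glutathione, thioredoxin, quinone and heme pathways that NRF2 is known to control: Gclc, Gclm, Gss, Gsr, Txnrd1, Srxn1, Nqo1 and Hmox1. Every probe set whose platform annotation gave exactly 1 gene symbol, and that symbol one of these 10, was taken. This gave 21 of the 45037 probe sets that are not controls, and 10 of 18193 named genes. Nqo1 and Hmox1 had 1 probe set each, Txnrd1 had 3, Srxn1 had 4 and the other genes had 2.

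Livers were taken whole from male mice of the inbred strain C57BL/6J, with no transgene or deletion named in the labels. Mice were bought at 3 weeks of age, all ate the low-fat diet for 1 week, and were then fed for 4 weeks with 10% (low-fat) or 45% (high-fat) of energy from fat. They were 8 weeks old and were killed on day 30 after a fast of 16 h. RNA of each mouse was hybridised to an array of its own, with 10 low-fat and 10 high-fat mice; high-fat groups that also received a maple syrup extract are not analysed here. The question is which transcripts of this pathway differ in fasted liver after that period on the richer diet.

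NRF2 is made continuously and is held by KEAP1, which brings it to a ubiquitin ligase for destruction. Oxidants and electrophiles modify cysteines of KEAP1, NRF2 then accumulates in the nucleus, pairs with a small MAF protein and binds antioxidant response elements near its target genes. In the liver, which exports glutathione and clears drugs and peroxides, these targets include the enzymes that make glutathione, recycle it and the thioredoxins, and remove quinones and free heme.

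The antioxidant response element is shown first because many NRF2 targets are known to carry it. Its core, TGACNNNGC, was searched on both strands of RefSeq promoter windows (assembly GRCm38.p6) that run from 250 bases before to 50 bases after each annotated start. Of the 10 genes, 7 had a window there, with 9 windows in all, and Gclc, Gsr and Hmox1 had no entry. A match lay in 4 of these 9 windows, 1 each for Nfe2l2, Gclm, Txnrd1 (in 1 of its 3 windows) and Srxn1, against 12.4% of all 32851 windows (4071). The stretches below run 5′ to 3′ on the strand of the gene, with the match in capitals; where the element lies on the opposite strand the capitals show its reverse complement.
Nfe2l2: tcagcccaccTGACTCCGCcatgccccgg
Gclm: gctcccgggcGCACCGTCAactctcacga
Txnrd1: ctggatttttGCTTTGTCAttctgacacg
Srxn1: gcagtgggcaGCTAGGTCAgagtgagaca
The Nfe2l2 stretch lies at chr2:75704885-75704913 on the minus strand, with its match 240 to 232 bases before the start. The Gclm stretch lies at chr3:122245413-122245441 on the plus strand, with its match 134 to 126 bases before the start. For Txnrd1 the place is chr10:82859104-82859132 on the plus strand, 92 to 84 bases before the start. For Srxn1 it is chr2:152105542-152105570 on the plus strand, and this match lies 28 to 36 bases after the start base, inside the transcript. A match describes these letters only, and windows without one, such as those of Nqo1, Gss and Keap1, say nothing about elements farther away.

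No member probe set passed the test between diets. By limma, 0 of 21 had an adjusted p under 0.05, against 2.32% of all probe sets (1.11% with a higher and 1.20% with a lower high-fat mean). At an unadjusted p under 0.05 there were 5 of 21, 3 lower (both Gclc probe sets and 1 of Nfe2l2) and 2 higher (1 of Keap1 and 1 of Gsr), against 15.1% of all probe sets (7.28% lower and 7.86% higher). The diets overlapped for all 21, while they did not overlap for 0.180% of all probe sets. Means were higher on the high-fat diet for 15 of 21, against 52.2% of all probe sets. After quantile normalisation this held for 11 of 21, against 28.9% of all, and after centring each array on its median for 3 of 21, against 3.84% of all. In livers as whole tissue, fewer cells of a type and less RNA per cell cannot be told apart.

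The deposited values are probe set scores whose level runs like a log2 intensity but whose differences between arrays are compressed, by an amount that differs between probe sets. The pooled SD within diets ran from 7.78e-06 to 0.00466 among the members, a ratio of 599. Differences in score are hence no log2 fold changes, and levels or differences in score cannot be compared between genes. Centring arrays on their medians takes the same amount of score from every probe set of an array. Whether a sign turns under it hence follows from the size of each probe set's difference in score. Sizes are standardised differences (high-fat mean minus low-fat mean over the pooled SD within diets) with their 95% noncentral t interval, for n = 10 mice per diet. Each high-fat mouse was also set against each low-fat mouse, and the share of these 100 pairs with the higher score on the high-fat side is given, which needs only the order of the values. Over the members the median standardised difference was 0.50 and the median size without sign was 0.64, against 0.04 and 0.42 over all probe sets.

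**Figure D1:**
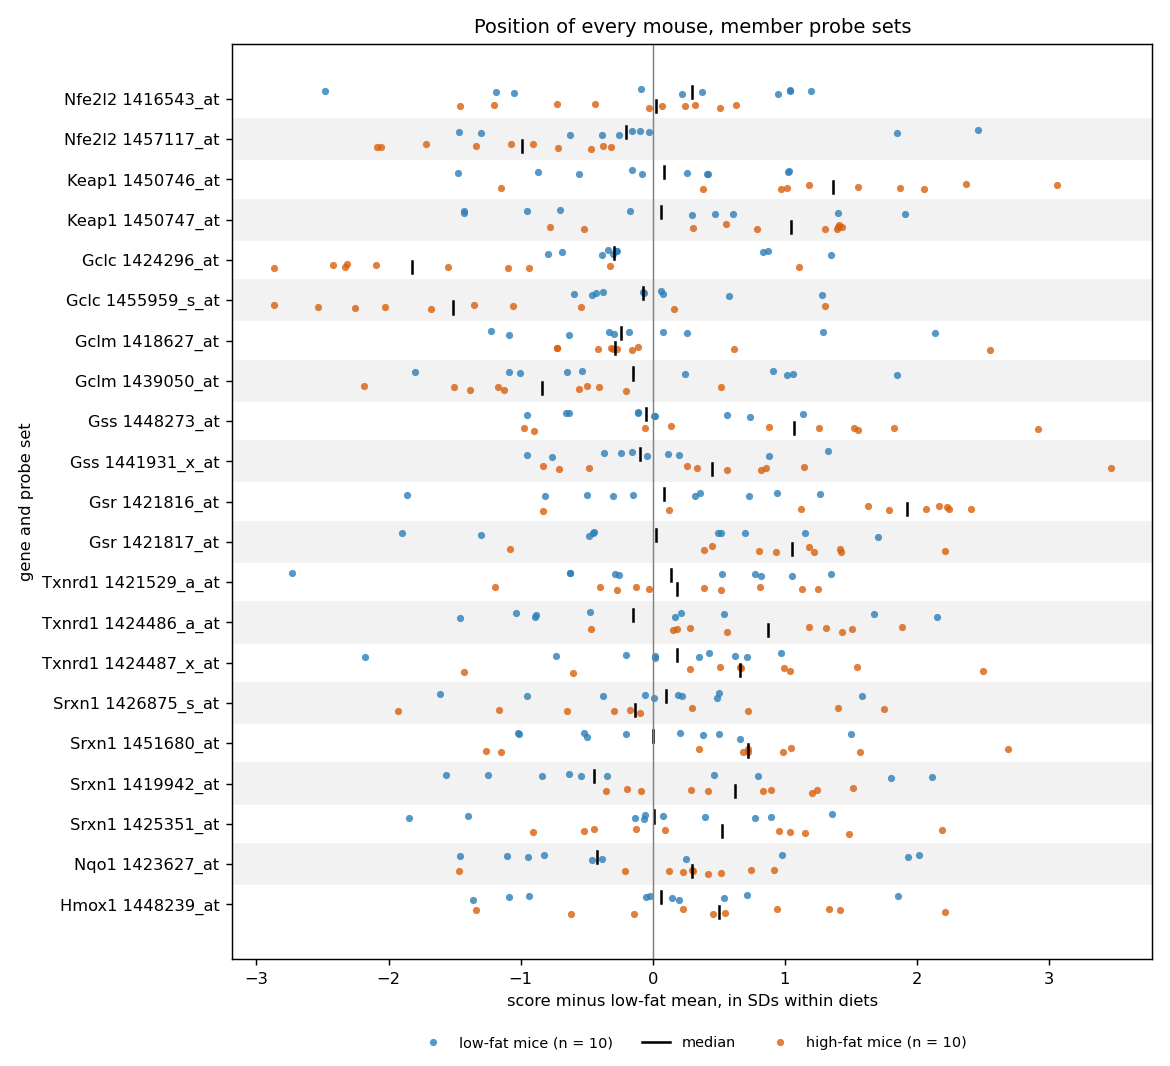
Position of every mouse for each of the 21 member probe sets, as its score minus the low-fat mean in units of the pooled SD within diets (x axis). Blue points are the 10 low-fat mice, orange points the 10 high-fat mice and black bars the median of each diet; the diets overlap in every row, with 8 high-fat mice below all low-fat mice for Gclc 1424296_at and 7 above all low-fat mice for Gsr 1421816_at.

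Of the regulators, Nfe2l2 encodes the factor itself. Its brighter probe set, 1416543_at, had scores of 9.33665, 9.33700 and 9.33711 (lowest, median and highest) in low-fat mice and 9.33678, 9.33696 and 9.33704 in high-fat mice. The high-fat mice lay inside the range of the low-fat mice, and the standardised difference was -0.21 (95% interval -1.08 to 0.67, adjusted p = 0.876). The other probe set, 1457117_at, ran through 6.5489, 6.5547 and 6.5672 in low-fat and 6.5459, 6.5511 and 6.5542 in high-fat mice. All 10 high-fat mice were below the low-fat median there, and 3 were below all low-fat mice. Its difference of -1.11 (-2.04 to -0.15) had a limma p of 0.0207, which did not pass after adjustment (0.220). The highest mice there were low-fat replicates 6 and 9 (1.85 and 2.46 SD above the low-fat mean). Their array medians were also the highest of the low-fat mice, and the part of this in the difference was not tested. Without replicate 9 the difference was -1.02. Among mice centred within diet these probe sets showed no correlation (r = -0.04), so the value of 1 cannot stand in for the other.

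Keap1 encodes the adaptor that targets NRF2 for degradation. Probe set 1450746_at had scores of 8.972642, 8.972665 and 8.97268 in low-fat mice and 8.972647, 8.972685 and 8.972711 in high-fat mice. High-fat mice were mostly high: 9 of 10 lay above the low-fat median and 6 above every low-fat mouse, with 83% of pairs higher. The difference of 1.33 (0.34 to 2.29, limma p = 0.00696) did not pass after adjustment (0.127), and it turned to -0.13 after quantile normalisation and -0.86 after centring arrays on their medians. Probe set 1450747_at lay at 0.73 (-0.19 to 1.63, adjusted p = 0.463), with 70% of pairs higher, and at -0.78 after median centring. The low mouse for Keap1 was high-fat replicate 2. Of 20 fits that each left out 1 mouse, 1450746_at passed only without this one (1.98, adjusted p = 0.0268). The others ran down to 1.22, with an adjusted p of up to 0.198, and leaving out the lowest high-fat mouse necessarily raises a positive difference.

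Glutathione is made by glutamate-cysteine ligase, a dimer of the catalytic subunit GCLC and the modifier subunit GCLM, and then by glutathione synthetase, GSS. Gclc 1424296_at had scores of 10.3230, 10.3243 and 10.3285 in low-fat mice and 10.3177, 10.3204 and 10.3279 in high-fat mice, with means ± SD of 10.3251 ± 0.00188 and 10.3213 ± 0.00308. Of the high-fat mice 8 were below every low-fat mouse, and only 13% of pairs were higher. The standardised difference of -1.48 (-2.47 to -0.47, limma p = 0.00313) did not pass after adjustment (0.0833).

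The other Gclc probe set, 1455959_s_at, gave the same picture, with scores of 9.43095, 9.43190 and 9.43434 in low-fat and 9.42685, 9.42929 and 9.43438 in high-fat mice. There 7 high-fat mice were below every low-fat mouse, and 1 was above every low-fat mouse. The difference was -1.29 (-2.24 to -0.30, limma p = 0.00853, adjusted 0.141). The high mouse was high-fat replicate 3 for both. Of the 20 fits without 1 mouse, both Gclc probe sets passed only without this one, at -2.25 (adjusted p = 0.0121) and -1.998 (adjusted p = 0.0247). The other 19 did not pass, with adjusted p of up to 0.142 and 0.225. This mouse lies against the difference, so leaving it out necessarily enlarges it. The array of this mouse was not far from the others over all probe sets (root-mean-square deviation 1.05 SD, against 0.773 to 1.11 over the 20 arrays), but its markers of Kupffer cells and macrophages (mean standardised score 2.05), of stellate cells (1.07) and of other leukocytes (0.67) were each the highest of the 20. Their part in its Gclc scores was not tested.

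The probe sets of the partner subunit gave unlike values. Gclm 1418627_at lay at 0.01 (-0.86 to 0.89, adjusted p = 0.994), with 50% of pairs higher, and its scores ran through 11.13010, 11.13019 and 11.13041 in low-fat and 11.13014, 11.13018 and 11.13045 in high-fat mice. High-fat replicate 3 was again the highest mouse, and without it the value was -0.33 (adjusted p = 0.785). Gclm 1439050_at lay at -0.85 (-1.76 to 0.08, adjusted p = 0.375), with 9 of 10 high-fat mice below the low-fat median. That is the direction of Gclc, and the difference between the subunits was not tested.

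Gss had higher means on the high-fat diet at both probe sets, with intervals that included 0. Probe set 1448273_at had scores of 8.492481, 8.492529 and 8.492593 in low-fat and 8.49248, 8.492589 and 8.492689 in high-fat mice, with 5 high-fat mice above every low-fat mouse and 1 below. The difference was 0.82 (-0.11 to 1.72, adjusted p = 0.398), and -0.36 after median centring. Probe set 1441931_x_at lay at 0.54 (-0.36 to 1.43, adjusted p = 0.614), and at -0.50 and -0.59 after quantile normalisation and median centring. Its highest mouse was high-fat replicate 3, and it lay at 0.31 without that mouse.

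Gsr encodes glutathione reductase, which returns oxidised glutathione to its reduced form with NADPH. It was the member with the highest standardised difference. Probe set 1421816_at had scores of 9.277968, 9.278032 and 9.278071 in low-fat and 9.278002, 9.278093 and 9.278109 in high-fat mice, and 7 high-fat mice lay above every low-fat mouse. The difference was 1.49 (0.48 to 2.48, limma p = 0.00297), with 85% of pairs higher, and did not pass after adjustment (0.0809). It depended on the scaling: it was -1.47 (adjusted p = 0.0408) after quantile normalisation and -0.34 after median centring. Of the 20 fits without 1 mouse it passed only without high-fat replicate 2, the lowest high-fat mouse, whose removal necessarily raises it (2.09, adjusted p = 0.0202). In the other 19 it ran down to 1.39, with an adjusted p of up to 0.132. The other probe set, 1421817_at, lay at 0.89 (-0.04 to 1.81, adjusted p = 0.345), with 74% of pairs higher, and at -0.53 after median centring.

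**Figure D2:**
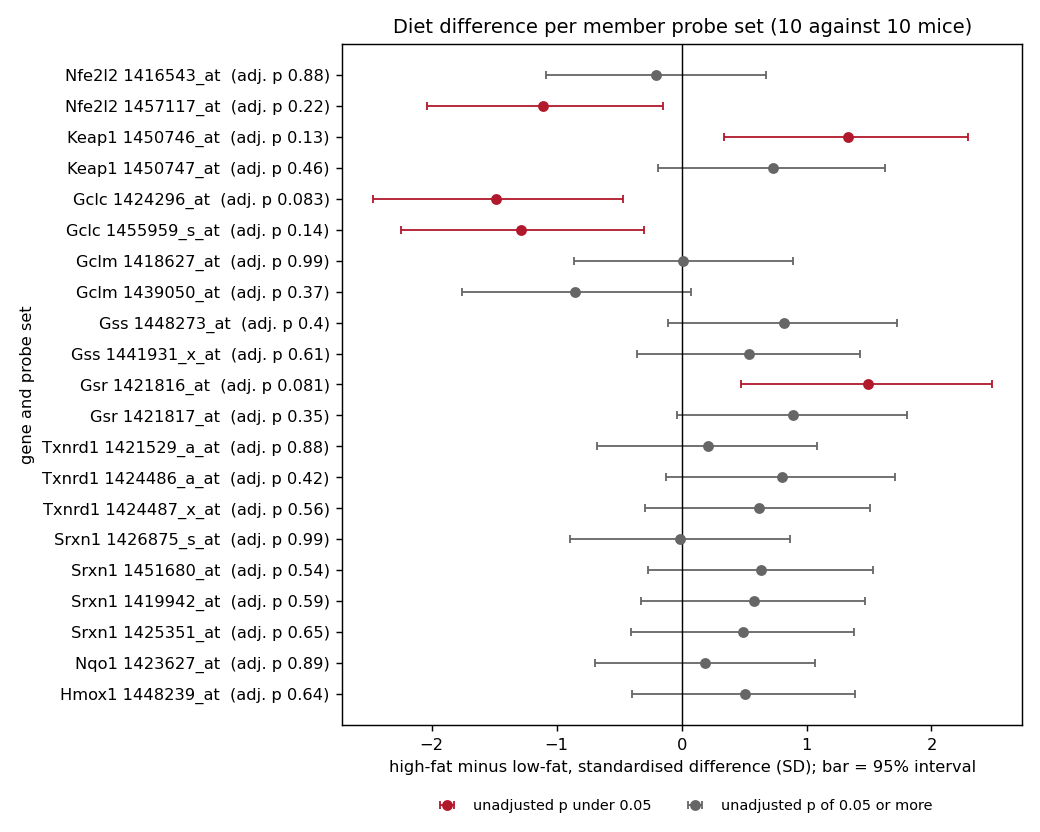
Standardised difference between diets (high-fat minus low-fat, x axis, in SDs within diets) for the 21 member probe sets, with bars for the 95% interval, 10 mice per diet and limma adjusted p beside each name. Red marks the 5 with an unadjusted p under 0.05; the values run from -1.48 for Gclc to 1.49 for Gsr on the deposited scale, and the adjusted p is 0.0809 or more for all 21.

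Txnrd1 encodes the cytosolic thioredoxin reductase and Srxn1 encodes sulfiredoxin, which repairs overoxidised peroxiredoxins. The brightest Txnrd1 probe set, 1421529_a_at, lay at 0.21 (-0.67 to 1.09, adjusted p = 0.876), with low-fat scores from 9.40815 to 9.40840 and high-fat scores from 9.40825 to 9.40839. The high-fat mice were inside the low-fat range, whose lowest mouse, low-fat replicate 1, stood apart. Probe sets 1424486_a_at and 1424487_x_at lay at 0.80 (-0.12 to 1.71) and 0.62 (-0.29 to 1.51), neither past the test (adjusted p = 0.417 and 0.556). After median centring these 3 probe sets lay at -0.73, -1.18 and -1.07.

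For Srxn1, 1426875_s_at lay at -0.01 (-0.89 to 0.86, adjusted p = 0.994), with scores of 7.85556, 7.85631 and 7.85696 in low-fat and 7.85542, 7.85620 and 7.85703 in high-fat mice. These ranges were almost the same. The other probe sets, 1451680_at, 1419942_at and 1425351_at, lay at 0.64, 0.58 and 0.49, with adjusted p between 0.537 and 0.654. Of these 1419942_at turned to -1.09 after median centring, while the other pair kept their sign under every alternative run. For median centring this was fixed by the score scale. The difference in score was 6.99e-06 for 1419942_at, below the 7.33e-05 between the array medians of the diets. It was 0.000133 and 0.00011 for the other pair.

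Nqo1 and Hmox1 are the members most used as a readout of NRF2, the former for a quinone reductase and the latter for heme oxygenase 1, which opens the heme ring. Nqo1 had scores of 6.525495, 6.525528 and 6.525605 in low-fat mice and 6.525495, 6.525550 and 6.525570 in high-fat mice. The diets overlapped almost fully, with 60% of pairs higher, although 9 of 10 high-fat mice were above the low-fat median. The difference was 0.19 (-0.69 to 1.06, adjusted p = 0.891). High-fat replicate 3, which was high for Gclc, Gclm and Gss, was the lowest mouse for Nqo1, and without it the difference was 0.40. The value was -1.23 after quantile normalisation and -1.43 after median centring. The latter passed as lower (adjusted p = 0.0170), under a scaling that called 84.9% of all probe sets lower.

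Hmox1 had scores of 7.50779, 7.50838 and 7.50911 in low-fat and 7.50780, 7.50856 and 7.50926 in high-fat mice. The difference was 0.50 (-0.39 to 1.39, adjusted p = 0.644), with 66% of pairs higher. Its highest mouse was high-fat replicate 3 once more, and without it the difference was 0.34. For both genes the interval still includes a shift of 1 SD upward, so a p that misses the threshold does not show that their levels were equal.

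Some members varied together among mice of the same diet. Scores were centred within each diet, each gene was taken through its probe set with the highest mean, and the 45 pairs of genes were compared over the 20 mice by a permutation test that shuffled mice within diets. The median r was 0.35, and 35 pairs were positive. Over all 165483528 pairs of genes the median was 0.002, with a 5th percentile of -0.451 and a 95th of 0.474, as a description. By r, 11 pairs passed after Benjamini-Hochberg adjustment over the 45 (13 before it), all of them positive in both diets. By Spearman's rho, 3 pairs passed (15 before adjustment), and these 3 were also among the 11. All scores of a mouse come from 1 array, so what an array shares enters every pair. Centring arrays on the median of their standardised scores left the count at 11. Such centring removes 1 offset per array and cannot remove other things that the scores of a mouse share, such as its mix of cells.

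The highest r was that of the dimer that starts glutathione synthesis. Gclc and Gclm correlated with r = 0.83 (adjusted permutation p = 0.00045) and rho = 0.68 (adjusted p = 0.0307), with r = 0.84 in low-fat mice and 0.88 in high-fat mice. Without the 2 mice farthest from the median of Gclc, r was 0.64. Gss and Gsr, the highest by rho, had r = 0.75 (adjusted permutation p = 0.0025) and rho = 0.82 (adjusted p = 0.0022), with 0.65 and 0.82 in the low-fat and high-fat mice and 0.71 without the 2 farthest. Txnrd1 and Hmox1 gave r = 0.68 (adjusted permutation p = 0.0088) and rho = 0.72 (adjusted p = 0.0207). Without the 2 farthest their r was 0.67 and did not pass (adjusted permutation p = 0.0531).

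The other 8 pairs that passed by r did not pass by rho. They joined Gsr to Keap1 (0.71), Txnrd1 (0.68) and Hmox1 (0.59), Gss to Gclc (0.68), Gclm (0.59) and Hmox1 (0.60), and Txnrd1 to Srxn1 (0.61) and Keap1 (0.54). Several fell without the 2 mice farthest from the median of the gene named first: Gclm with Gss to 0.23, Gsr with Txnrd1 to 0.39 and Gclc with Gss to 0.44. Taking out the extremes of 1 gene narrows its range, which by itself tends to lower r. Only 2 of the 45 pairs passed without the 2 farthest, Gclc with Gclm and Gss with Gsr (adjusted permutation p = 0.0306 for both). In low-fat mice alone 0 pairs passed (5 before adjustment) and in high-fat mice alone 7 passed (15 before adjustment); whether the diets differ in this was not tested.

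**Figure D3:**
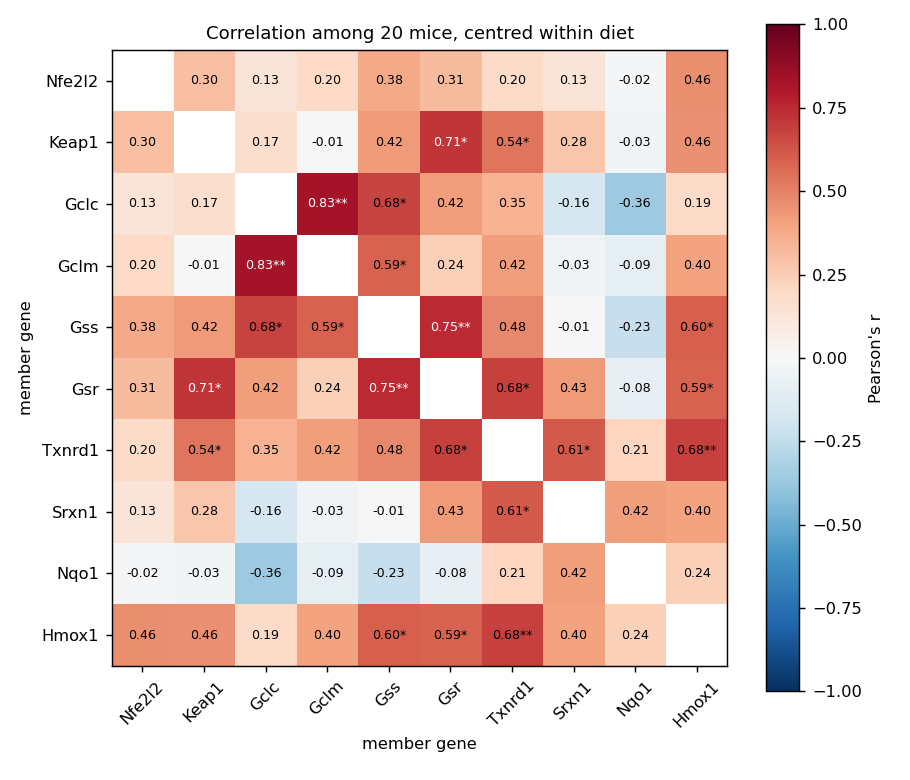
Pearson's r of each pair of member genes over 20 mice, with scores centred within diet, as numbers and as colour from -1 (blue) to 1 (red). One star marks the pairs past an adjusted permutation p of 0.05 by r and a double star those that also pass by Spearman's rho; the 3 with a double star are Gclc with Gclm (0.83), Gss with Gsr (0.75) and Txnrd1 with Hmox1 (0.68).

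Nqo1 and Nfe2l2 stood outside these pairs. Over all mice none of the 9 pairs of Nqo1 passed, with r from -0.36 (with Gclc) to 0.42 (with Srxn1), and neither did any pair of Nfe2l2, with r from -0.02 to 0.46. The Nqo1 and Gclc values ran in opposite directions in high-fat mice, and this was 1 of the 7 pairs that passed there (r = -0.86, adjusted permutation p = 0.0342). Replicate 3 was the highest high-fat mouse for Gclc and the lowest for Nqo1. In low-fat mice r was -0.04, a difference that was not tested. Over all mice r was -0.05 without the 2 mice farthest from the median of Gclc. Among 16437 genes with a usual gene symbol, those whose centred scores were most like Nqo1 over the 20 mice were Tbl3 (r = 0.89), Fam234b (0.88), Tgfbr2 (0.87), Isca2 (0.85) and Lclat1 (0.85). The nearest member, Srxn1, ranked 2349. Nqo1 was read by 1 probe set only, whose mean score of 6.526 was below the median of every array (6.567 or more). So were Nfe2l2 1457117_at (6.553), Srxn1 1425351_at (6.410) and Txnrd1 1424487_x_at (5.913). Background is unknown, so this place does not show how well a probe set was read. The highest mice for Nqo1 were low-fat replicates 6 and 9 (1.93 and 2.01 SD above the low-fat mean). Their array medians (6.56720 for both) were also the highest of the low-fat mice. The part of this in the Nqo1 correlations was not tested.

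Probe sets of the same gene gave a measure of how well a member was read. Of 15 such pairs 7 passed by r, with a median of 0.43 and a range from -0.04 to 0.94. The Gclc probe sets agreed best (0.94), followed by 3 pairs of Srxn1 (0.80 to 0.86), Gss (0.78), Gsr (0.77) and Gclm (0.61). The Txnrd1 probe sets had r of -0.01, 0.19 and 0.36, so the Txnrd1 pairs above describe 1421529_a_at only. Those of Keap1 had r = 0.43 and did not pass (adjusted permutation p = 0.0901), so the Keap1 pairs describe 1450746_at only. Srxn1 1419942_at had r of 0.29, 0.38 and 0.38 with the other Srxn1 probe sets.

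**Figure D4:**
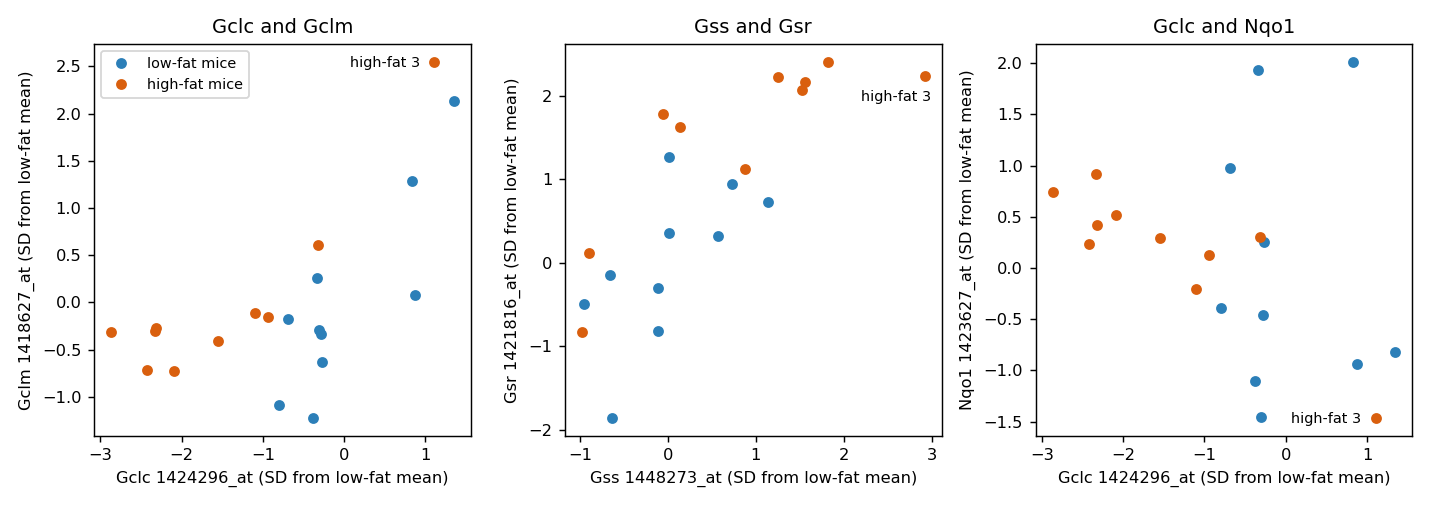
Gclc against Gclm, Gss against Gsr and Gclc against Nqo1, 1 point per mouse, each axis in SDs within diets from the low-fat mean, with low-fat mice in blue and high-fat mice in orange. High-fat replicate 3 is named: it is the highest high-fat mouse for Gclc (1.11), Gclm (2.55) and Gss (2.92) and the lowest for Nqo1 (-1.47).

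Other genes of the pathway were counted from 7 lists with 90 measured genes, each gene through its probe set with the highest mean. Ggt1, Prdx1, Prdx5, Prdx6, Gsta1, Ugt1a6a, Ftl1 and G6pdx were among the genes listed but not analysed here. By limma, 11 of 90 genes passed (12.2%), 4 of them up and 7 down with the high-fat diet, against 3.00% of all genes (1.49% higher and 1.51% lower). The lists were chosen with earlier results of these data known, so these shares describe the lists and do not test them. The median standardised difference of the 90 was -0.17, against 0.04 over all genes. With the poly-A spike-in score as a covariate 6 passed, against 1.71% of all genes; Syvn1, Gpx4, Gstm6, Cbr1 and Urod lost their calls (adjusted p = 0.0579, 0.0585, 0.0747, 0.141 and 0.104). After centring arrays on their medians 63 passed (6 higher, 57 lower), against 83.4% of all genes. On the deposited scale the 11 did not move in 1 direction, and glutathione S-transferase genes stood at both ends.

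Among 14 genes of NRF2 control and dimer partners 2 rose, 0 fell and 12 did not pass, with a median of 0.54. Bach1, a repressor that competes with NRF2 for the same elements, rose by 2.10 SD (0.97 to 3.19, adjusted p = 0.0151), with 95% of pairs higher. All 10 high-fat mice were above the low-fat median, at scores from 9.55019 to 9.55063 against 9.54999 to 9.55029. The other Bach1 probe set did not pass (1.27, adjusted p = 0.148), and the value of the former was -0.44 after quantile normalisation. Syvn1, a ubiquitin ligase of the endoplasmic reticulum that can target NRF2, rose by 1.93 SD (0.84 to 2.99, adjusted p = 0.0235), and its other probe set rose too (1.82, adjusted p = 0.0338). Crebbp, a coactivator, had the smallest p among the rest (1.33, adjusted p = 0.126).

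In the genes that use glutathione against peroxides and aldehydes (peroxidases, glutaredoxins and glyoxalases), 1 of 11 fell, 0 rose and 10 did not pass, with a median of -0.32. Gpx4, which reduces lipid peroxides in membranes, fell by 1.92 SD (-2.98 to -0.83, adjusted p = 0.0258), with 8% of pairs higher. Its other probe set lay at -0.22 (adjusted p = 0.876), so the fall was seen at 1 of 2 probe sets. Gpx7 lay at 1.17 (adjusted p = 0.189) and Glo1 at -1.01 (adjusted p = 0.272).

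Of 15 genes of glutathione turnover and cysteine supply 1 fell, 0 rose and 14 did not pass, with a median of -0.34. Ggt6, of the gamma-glutamyltransferase family, fell by 2.12 SD (-3.22 to -0.99, adjusted p = 0.0141), with 9 of 10 high-fat mice below every low-fat mouse. After quantile normalisation it lay at -1.02 and lost the call (adjusted p = 0.135). The cystine transporter subunit Slc7a9 (1.29, adjusted p = 0.141) and the aminopeptidase Lap3 (1.15, adjusted p = 0.197) did not pass. In the thioredoxin and peroxiredoxin system 0 of 12 genes passed by limma. At an unadjusted p under 0.05 there were 6, against 15.1% of all probe sets. The latter share counts probe sets and not genes through their probe set with the highest mean, so it is no matched background. Txnip (1.12, adjusted p = 0.215) and Sesn1 (1.08) had higher means, Txnrd3 (-1.06), Msrb1 (-1.01), Prdx2 (-1.002) and Txnrd2 (-0.94) lower ones, and the median of the 12 was -0.28.

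The 25 other known NRF2 target genes held the widest differences, with 2 higher, 3 lower, 20 not past the test and a median of -0.31. Abcc3, an exporter of conjugates from the hepatocyte into blood, rose by 2.95 SD (1.64 to 4.23, adjusted p = 0.00137). Its scores ran from 9.1093 to 9.1174 in low-fat and from 9.1166 to 9.1292 in high-fat mice, and 9 high-fat mice were above every low-fat mouse. Gsta2 rose by 2.04 SD (0.92 to 3.12, adjusted p = 0.0177). Gsta3 fell by 2.72 SD (-3.94 to -1.46, adjusted p = 0.00262), and its other probe set fell by 2.49 SD (adjusted p = 0.00492).

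These are glutathione S-transferases, which join glutathione to electrophiles. The alpha class genes Gsta2 and Gsta3 therefore passed in opposite directions, although members of this family are close in sequence and probe sets may read more than 1 of them; Gsta3 lost its call after quantile normalisation (-0.67, adjusted p = 0.327). Gstm6, of the mu class, fell by 2.01 SD (-3.08 to -0.90, adjusted p = 0.0189). Cbr1, a carbonyl reductase, fell by 1.77 SD (-2.80 to -0.70, adjusted p = 0.0385). Leaving out 1 mouse ended that call in 12 of 20 such fits, with an adjusted p of up to 0.0688.

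NADPH drives both glutathione reductase and thioredoxin reductase. Of 5 genes of its supply Me1, the cytosolic malic enzyme, fell by 2.40 SD (adjusted p = 0.00609), with every high-fat mouse below every low-fat mouse, and 4 did not pass. The other Me1 probe set lay at -1.28 (adjusted p = 0.144). The pentose phosphate genes Taldo1, Tkt and Pgd lay at 0.47, -0.37 and 0.15 (adjusted p = 0.675, 0.753 and 0.915). Among 9 genes of heme breakdown and synthesis 1 fell and 8 did not pass. Urod, an enzyme of heme synthesis, fell by 1.77 SD (adjusted p = 0.0384), which was lost in 13 of the 20 fits without 1 mouse (up to 0.0662), while its other probe set lay at -0.93 (adjusted p = 0.318). Hmox2, the constitutive partner of Hmox1, lay at -0.80 (adjusted p = 0.410).

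**Figure D5:**
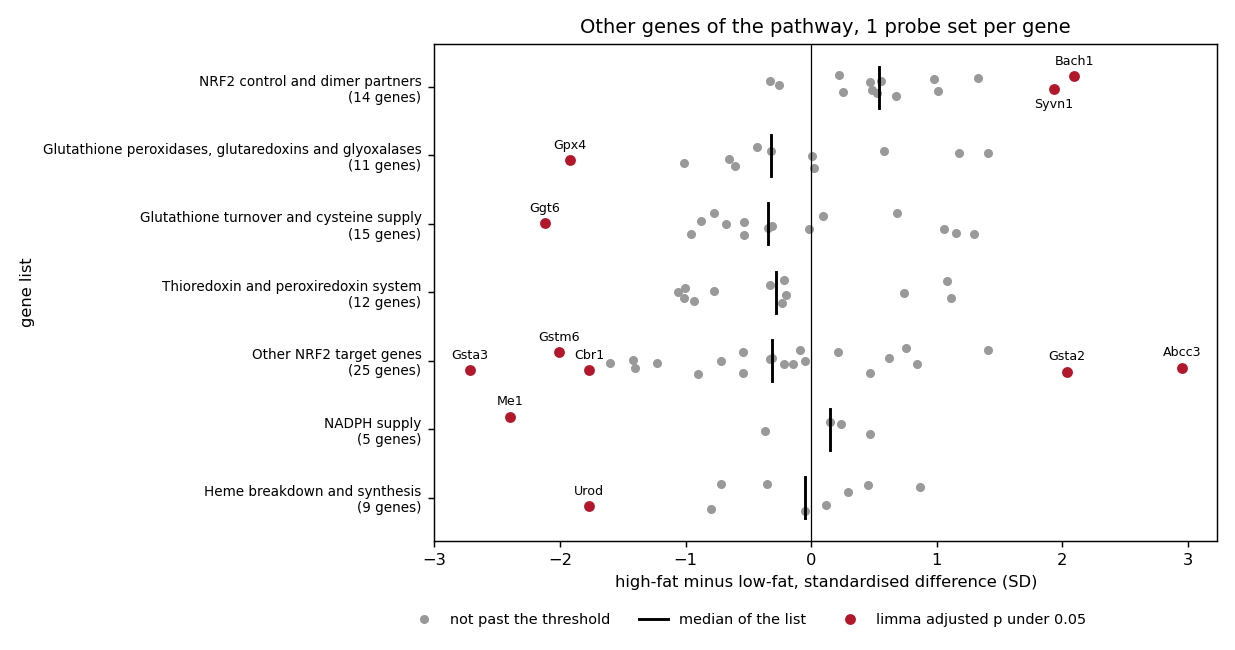
Standardised difference between diets (x axis, high-fat minus low-fat, in SDs within diets) of 90 other genes of the pathway in 7 lists, 1 point per gene in each list (Blvrb stands in both the target and the heme list), with a bar for the median of each list. Red points are the 11 genes past a limma adjusted p of 0.05; on the deposited scale 4 lie to the right (Bach1, which turned to -0.44 after quantile normalisation, Syvn1, Gsta2 and Abcc3) and 7 to the left.

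The 7 hepatocyte markers measured had mean scores from 11.5 to 14.8; levels of different probe sets cannot be compared and background is unknown, so these do not test the tissue label. By limma 0 genes passed in each of 9 marker lists of liver cell types and zones. One of them, the hepatocyte gene Ttr, was lower in every high-fat mouse (-3.12) with an adjusted p of 0.241; its pooled SD was 5.02e-07, and limma's shared variance weighs most on probe sets with SDs this small. The nearest to the threshold were the pericentral genes Slc1a2 (1.62, adjusted p = 0.0582) and Oat (1.502, adjusted p = 0.0794), which mark the hepatocytes around the central vein. The mean standardised score of all 8 pericentral markers ran from -1.58 to 0.58 (median -0.49) in low-fat and from -0.57 to 1.04 (median 0.44) in high-fat mice. Of these 8 genes 7 had a higher high-fat mean. The medians of 6 periportal markers were 0.15 and -0.05, with 4 genes lower and 2 higher. The 11 Kupffer cell and macrophage markers ran from -0.85 to 1.44 (median -0.27) in low-fat and from -1.16 to 2.05 (median 0.09) in high-fat mice. Poly-A spike-in controls, added before labelling, had a mean standardised score lower in high-fat mice by 0.860 (permutation p = 0.0683). This was no even shift: high-fat replicates 1, 4, 5 and 7 lay at -1.53, -1.71, -2.004 and -2.44. The other high-fat mice lay between 0.00302 and 1.16, and the low-fat mice between 0.154 and 0.976. Hybridisation controls of the same replicates were also low (-1.05, -0.893, -0.74 and -1.35), but the lowest array was low-fat replicate 10 (-1.497). Array medians were higher by 7.33e-05 (permutation p = 0.00985), and 0 pairs of arrays held identical values. The part of these in the values of the NRF2 genes was not tested. With arrays centred on their medians 8 of 21 member probe sets passed, all lower, against 84.9% of all probe sets: both of Gclc, 1 each of Nfe2l2, Gclm, Srxn1 and Nqo1, and 2 of Txnrd1.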

How the data were processed

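The authors deposited 1 table of probe set scores, 1 column per array; the sources used here do not say how probes were summarised and normalised. Biotin-labelled RNA was prepared from 200 ng of total RNA with a 3′ kit, per the labels' protocols. The deposited scores ran from 5.18 to 15.0, with a median SD of 1.17e-05, and were used as given. The 64 control probe sets were left out. Of the rest 34945 had 1 gene symbol, 932 had several and got no name, and 9160 are unnamed here; all 21 member probe sets matched the gene table of GRCm38.p6 by gene identifier. The table of scores held 0 columns of other samples.

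Each probe set was tested by limma 3.58.1 (R 4.3.3), two-sided, with lmFit, eBayes and diet as the only term. P-values were adjusted by Benjamini-Hochberg over 45037 probe sets, with a threshold of 0.05. Variance sharing was weak (prior degrees of freedom 0.778). A listed gene was counted through its probe set with the highest mean. Correlations used 100000 resamples. The fit was tested on simulated data. All members, all listed genes past the threshold and otherwise at most the 3 with the smallest p of a list are named, and the 5 genes most like Nqo1; Ttr, Slc1a2, Oat, Pgd, Msrb1, Prdx2 and Txnrd2 lie outside this rule and were named after their values were seen. The members and lists were chosen with earlier results of these data known. Labels call the mice biological replicates. The number of arrays limits the precision, and no probe-level signal or background was used. Alternatives are given at the end.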

Additional observations from a re-analysis of the deposited data

Results flagged for a closer look

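A mouse stood far from the other 9 of its diet in 5 of 64 groups tested (21 member probe sets and the 11 other pathway genes past the threshold, in each diet); chance gives about 1 in 20. The measure is the gap to the nearest mouse divided by the range of the group, set against Dixon's 95% critical value for 10 samples. High-fat replicate 3 was high for Gclm 1418627_at (0.591) and for Gss 1441931_x_at (0.540), and low for Nqo1 (0.528). Without it these probe sets lay at -0.33, 0.31 and 0.40 SD, and none passed. Low-fat replicate 1 was low for Txnrd1 1421529_a_at (0.515), which lay at -0.12 SD without it. High-fat replicate 9 was low for Gpx4 1451695_a_at (0.541), which passed without it (-2.01 SD, adjusted p = 0.0295).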

How the results depend on the processing

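The count of member probe sets past the threshold stayed at 0 under 11 of 13 alternatives. It was 2 (both lower) after quantile normalisation, 8 (all lower) after centring arrays on their medians, and 0 to 2 when 1 array was left out. These scalings moved the median standardised difference of all probe sets from 0.04 to -0.41 and -1.29, and gave 375 higher and 3772 lower, and 396 higher and 38220 lower calls, so lower calls under them are relative to that shift; 42357 probe sets could be tested after quantile normalisation. The count of pathway genes (11) was 63 after median centring (6 higher, 57 lower), 6 with the spike-in covariate (3 and 3), 3 at a threshold of 0.01, and 9 to 11 without 1 array. The count of correlated pairs (11) was 0 in low-fat mice, 7 in high-fat mice and 2 without the 2 farthest mice.

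Signs turned after median centring for Keap1 (-0.86 and -0.78), Gclm 1418627_at (-0.75), Gss (-0.36 and -0.59), Gsr (-0.34 and -0.53), Txnrd1 (-0.73, -1.18 and -1.07), Srxn1 1419942_at (-1.09) and Nqo1 (-1.43). After quantile normalisation they turned for Keap1 1450746_at (-0.13), Gclm 1439050_at (0.018), Gss 1441931_x_at (-0.50), Gsr 1421816_at (-1.47), Txnrd1 (-0.66 and -1.19), Srxn1 1426875_s_at (0.038), Nqo1 (-1.23) and Bach1 (-0.44). Values near 0 also turned: Gclm 1418627_at with arrays centred on standardised scores (-0.020), and Srxn1 1426875_s_at with array weights (0.031) and the spike-in covariate (0.0088). Leaving out 1 array turned Gclm 1418627_at (-0.33 to 0.29), Txnrd1 1421529_a_at (-0.12 to 0.38) and Srxn1 1426875_s_at (-0.23 to 0.22). Gclc kept its sign throughout. Its probe set 1424296_at passed after quantile normalisation (-2.05, adjusted p = 0.00941) and both passed after median centring. The turns under median centring follow from arithmetic. The positive differences in score that turned ran from 1.35e-06 to 4.92e-05, all below the 7.33e-05 between the array medians of the diets. They describe the score scale of a probe set and say nothing about its gene. The causes of the other turns were not tested.

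The labels do not say whether the replicate numbers shared by the diets pair the mice. Deviations of same-numbered mice had r from -0.15 to 0.23, over 0.1 in 2 of 10. Of 10 low-fat mice, 2 were most like the high-fat mouse of their own number. These values cannot settle whether mice were paired. With the replicate block 0 members and 6 pathway genes passed (2 higher, 4 lower), and 538 of all probe sets against 1043. A fit without both high-fat replicates 2 and 3 was also run and gave more member calls. It is not reported, because these mice were picked after seeing how each changed the calls.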
